A study of Arabidopsis thaliana with 24 samples.

Results

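Pre-existing RNA (PE) stands for the unlabeled fraction, taken as the RNA already present in seedlings when 4-thiouridine (4SU) was added. It was compared here between seedlings kept at 27°C and seedlings kept at 17°C. The 6 arrays of the unlabeled fraction, 3 at 27°C and 3 at 17°C, were chosen by their labels out of 24 arrays in the series. The other arrays hold total RNA at the addition of 4SU (time 0), total RNA at the end of labeling, and the labeled, newly synthesized (NS) fraction, with 3 arrays of each at each temperature. The seedlings were Arabidopsis thaliana of the ecotype Columbia, with no mutation or transgene named, germinated at 22°C for 3 days and then held at 27°C or 17°C for 7 days in cycles of 12 hours of light and 12 hours of dark. Whole seedlings of 10 days, according to the labels (the methods give another age), were floated on MS medium for 12 hours before time 0. The 27°C samples were labeled with 1.5 mM 4SU for 1 hour and the 17°C samples for 2 hours, again according to the labels, while the methods state that concentrations differed between conditions. The methods place the addition of 4SU shortly after dawn, so the time of day at harvest differed as well. Temperature, labeling time and time of day therefore changed together in the PE comparison and in the other comparisons at the end of labeling. Their parts cannot be told apart.

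Cells build 4SU into RNA as it is transcribed, so biotin coupled to the thiol group lets a streptavidin column retain RNA made after the addition, while older RNA flows through. The flow-through of a gene is taken as what remains of its RNA at time 0 after decay, provided that no newly made RNA is left in it. A stable transcript keeps its level in this fraction, while a short-lived transcript is depleted from it. Seedlings of Arabidopsis respond to warmth within the ambient range with changed growth and with changed levels of heat shock and cold response transcripts. Because equal amounts of RNA are hybridized and MAS5, the Affymetrix signal algorithm, scales each array to the same mean, a PE signal is a share of the RNA in that fraction and keeps no record of how much RNA the fraction held. In whole seedlings, fewer cells of a type and less RNA per cell cannot be told apart.

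Among the 12906 of 22746 probe sets that had a signal of at least 50 on each of the 12 total RNA arrays, the median PE signal was 417, 412 and 404 at 27°C, against 441, 449 and 452 at 17°C. Across probe sets, Pearson's r between PE replicates lay between 0.970 and 0.983 at 27°C, between 0.976 and 0.981 at 17°C, and between 0.935 and 0.953 for arrays of different temperatures. By these values no array of either temperature stood apart. Of the marker genes listed for leaf, root, pollen and seed none had a named and kept probe set, so the tissue was not checked with them. RCA, the activase of Rubisco and a transcript of green tissue, had PE signals of 21933, 23234 and 24964 at 27°C and of 21363, 20393 and 20433 at 17°C.

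PE levels differed between the temperatures for 807 probe sets, 6.25% of those tested. At 27°C 326 probe sets were higher (2.53%) and 481 were lower (3.73%) than at 17°C, by limma with an adjusted p (Benjamini-Hochberg) under 0.01 and a change above 1.5-fold. More than 4-fold differences were found for 35 probe sets that were higher and 35 that were lower at 27°C. At an unadjusted p under 0.05, 1682 probe sets were higher and 2792 lower. The middle of the distribution was shifted as well: the median log2 difference was -0.08 over all probe sets tested, with quartiles of -0.36 and 0.19. The balance of calls follows that shift. With each array centered on its median, 515 were higher and 360 lower, and with quantile normalization 389 were higher and 364 lower, so that the share called higher was 40.4% as deposited, 58.9% after centering and 51.7% after quantile normalization. Without the filter on low signals 0 probe sets of 22746 passed the limit (lowest adjusted p = 0.0173 by limma, with 475 probe sets at an adjusted p under 0.05 and 4856 at an unadjusted p under 0.05), whereas 1254 passed when the same unfiltered fit let the variance follow the signal.

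**Figure D1:**
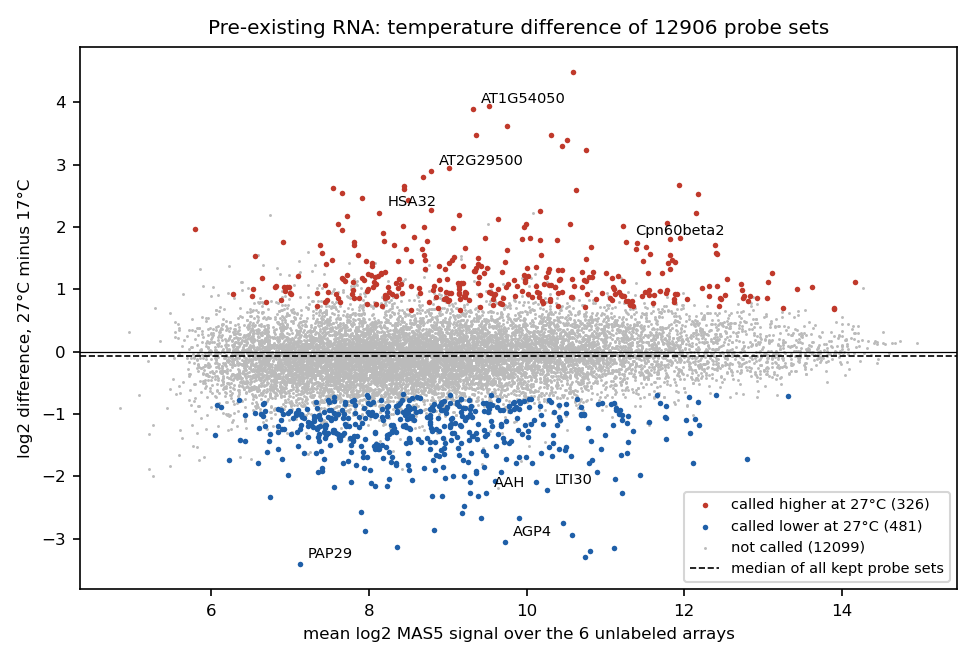
Log2 difference in pre-existing RNA (27°C minus 17°C, vertical axis) against the mean log2 MAS5 signal over the 6 unlabeled arrays (horizontal axis) for each of 12906 probe sets. The 326 probe sets called higher (red) and 481 called lower (blue) at 27°C lie at low, middle and high signals, and the dashed line is the median of -0.08.

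Among genes with a name, the largest PE increases at 27°C were those of AT1G54050, AT5G25450 and AT4G23680, and the largest decreases were those of PAP29, AGP4 and AT3G20270. The called probe sets carried 1 gene name for 176 of those that were higher and 263 of those that were lower, and only these can be named here. Probe sets without a single name reached a log2 difference of 4.50 upward and -3.30 downward. AT1G54050 had PE signals of 1949, 2441 and 3106 at 27°C and of 159, 162 and 176 at 17°C. All of its 27°C arrays lay far above the 17°C arrays. Its difference was 14.8-fold (log2 difference 3.89, SE 0.18, adjusted p = 5.16e-05 by limma). At 27°C the PE signals of this gene lay above its time 0 signals, which are given further down with its NS signals.

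AT5G25450 had signals of 2916, 2567 and 3726 at 27°C and of 366, 197 and 206 at 17°C, a log2 difference of 3.62 (SE 0.25). AT2G43620 had signals of 4773, 5295 and 4277 at 27°C and of 798, 485 and 236 at 17°C, a log2 difference of 3.40 (SE 0.37). In both genes the groups did not overlap, and relative to their mean the 17°C replicates were more spread than the 27°C replicates. AT5G14920, annotated as a member of the gibberellin-regulated family, was among the most abundant of these transcripts. It had signals of 9413, 12459 and 11597 at 27°C and of 2302, 1830 and 1700 at 17°C. Its difference was 5.75-fold (adjusted p = 0.000121 by limma). The other 8 of the 12 largest named increases had log2 differences of 2.54 to 3.47.

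PAP29, a purple acid phosphatase, was low in the fraction at 27°C, with signals of 47.2, 33.4 and 49.0 at 27°C and of 404, 484 and 479 at 17°C. Its difference of -3.42 on the log2 scale (SE 0.18, adjusted p = 7.03e-05 by limma) rests on 27°C signals that all lay below 50, the level of the filter on total RNA, and was -2.70 when 32 was added to each signal before the logarithm. AGP4, an arabinogalactan protein of the cell surface, had signals of 236, 237 and 453 at 27°C and of 2666, 2541 and 2147 at 17°C. The highest 27°C array of AGP4 lay well below its lowest 17°C array, and the log2 difference was -3.05 (SE 0.25). AAH, the allantoate amidohydrolase of purine breakdown, had signals of 321, 356 and 304 at 27°C and of 1400, 1261 and 2193 at 17°C. Its difference was 4.81-fold downward (log2 difference -2.27, adjusted p = 0.000388 by limma). AT3G23550 varied more than these, with signals of 110, 346 and 124 at 27°C and of 1562, 958 and 1214 at 17°C (log2 difference -2.86, SE 0.40). Its call was lost without replicate 1 or without replicate 3 of the 17°C arrays, and of these 24 genes it was the only one that lost its call when an array was left out. The other 8 of the 12 largest named decreases had log2 differences of -2.31 to -2.87.

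**Figure D2:**
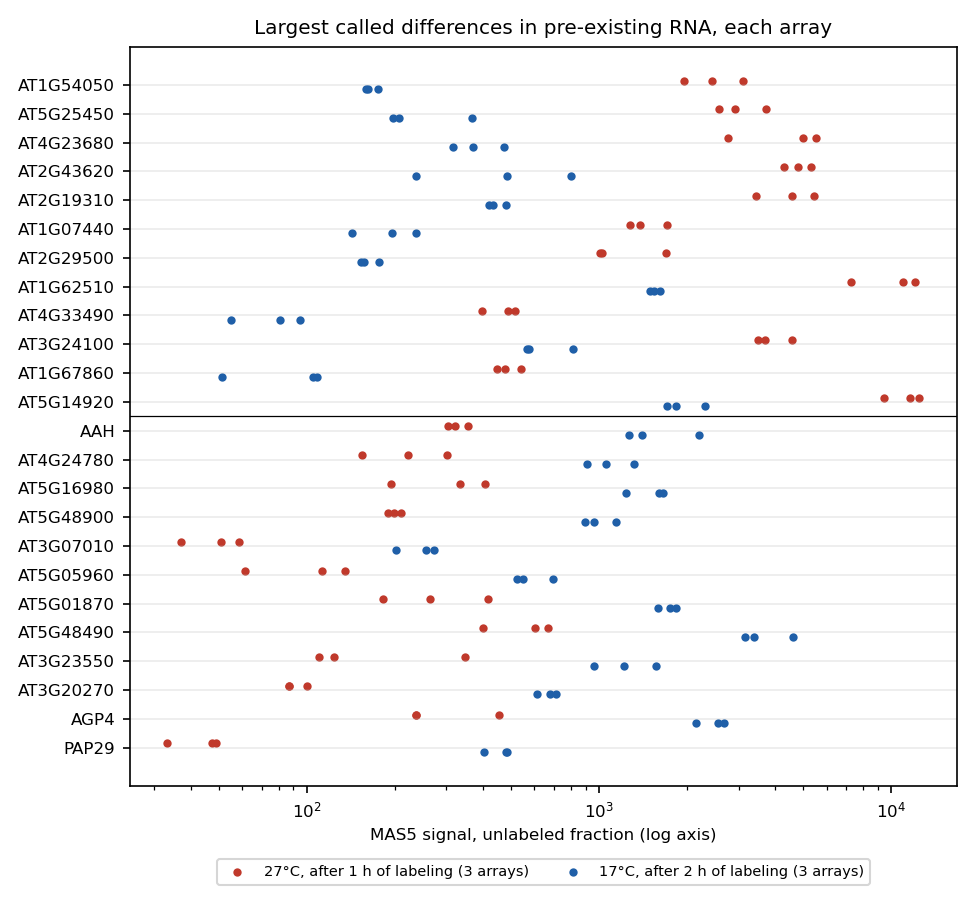
MAS5 signal in the unlabeled fraction on each array (log axis) for the 12 named genes with the largest called increases (above the line) and the 12 with the largest called decreases (below it). The 3 arrays at 27°C (red) and the 3 at 17°C (blue) do not overlap for any of the 24 genes, which their choice fixed (only genes with separate replicates were taken), so nothing follows from the shares of all probe sets that were separate, 15.7% upward and 24.1% downward.

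On the heat shock list, HSA32 and Cpn60beta2 were higher in PE at 27°C. They were the 2 called of 6 measured members (0 lower, median log2 difference 0.48), beside 2.53% higher of all probe sets. Both were added to that list after their values were seen, and of the 4 other members 0 were called. The list has 53 entries, and only 8 of its genes had a named probe set, so the count leaves most entries out. AT1G54050, AT2G29500 and AT2G19310, among the 12 largest named increases, are not members of this list. HSA32, a heat-stress-associated protein needed to keep acquired thermotolerance, had signals of 502, 548 and 807 at 27°C and of 134, 136 and 117 at 17°C. It differed by 4.70-fold (log2 difference 2.23, SE 0.20, adjusted p = 0.00031 by limma). Cpn60beta2, a subunit of the chloroplast chaperonin, had signals of 4793, 3674 and 5318 at 27°C and of 1008, 1691 and 1395 at 17°C, a log2 difference of 1.77 (SE 0.22). Replicates of both genes were separate, but the call of Cpn60beta2 was lost without replicate 3 of the 17°C arrays. Fes1A, a partner of HSP70 chaperones, had a difference of 0.70 (adjusted p = 0.0426) and the heat shock factor HSFB2A one of 0.26 (adjusted p = 0.248), neither past the limit in the limma test.

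Of 4 measured chlorophyll breakdown genes 2 were called higher, beside 2.53% of all probe sets. The lists for chlorophyll breakdown, cytochrome P450, UDP-glycosyltransferases, RNA polymerase subunits and disease resistance were drawn up after PE calls had been seen, so their counts only describe genes already known to differ. ACD1, the pheophorbide a oxygenase that opens the chlorophyll ring, had signals of 2671, 2758 and 3313 at 27°C and of 990, 1059 and 1052 at 17°C (log2 difference 1.49, SE 0.14). PPH, the pheophytinase that acts before it, had signals of 702, 928 and 812 at 27°C and of 391, 347 and 442 at 17°C (log2 difference 1.05, SE 0.16). Both genes were separate between the temperatures, while NOL and MES16 of the same pathway had differences of 0.30 and 0.26 that did not pass. Of 12 cytochrome P450 monooxygenases, CYP71B5 (1.72) and CYP71B26 (1.09) were higher on the log2 scale, 0 were lower, and the median was 0.02. Over all probe sets 2.53% were higher and 3.73% lower. The call of PPH was lost without replicate 1, 2 or 3 of the 17°C arrays and without replicate 3 of the 27°C arrays.

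Among the genes that were lower at 27°C, LTI30, a dehydrin that accumulates in the cold, belongs to the cold response list. Its signals were 620, 517 and 564 at 27°C, against 2961, 2537 and 2447 at 17°C, a 4.67-fold difference (log2 difference -2.22, SE 0.15, adjusted p = 0.000104 by limma). The other 3 measured members of the cold response list did not pass, so 1 of 4 was lower, beside 3.73% of all probe sets. COR47, another dehydrin, had a log2 difference of -0.14, HOS1, a ubiquitin ligase that acts on cold signaling, one of -0.13, and STZ, a zinc finger repressor, one of 0.03.

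UDP-glycosyltransferases, which attach sugars to hormones and secondary metabolites, had 4 of 25 members lower and 0 higher, with a median of -0.25, where 3.73% of all probe sets were lower and 2.53% higher. UGT71C2 (-1.87), UGT73B1 (-1.54), UGT76C2 (-1.22), an enzyme of cytokinin glucosylation, and UGT76E11 (-1.09) were those called. The calls of UGT71C2, UGT76C2 and UGT76E11 were lost whichever of the 17°C arrays was left out, that of UGT76C2 also without replicate 1 at 27°C, and that of UGT76E11 also without replicate 1 or 3 at 27°C. Of 12 subunits of nuclear RNA polymerases 3 were lower and 0 higher, beside the same 3.73% and 2.53% of all probe sets. NRPE7, a subunit of RNA polymerase V, had signals of 101, 128 and 80.7 at 27°C and of 266, 244 and 279 at 17°C (log2 difference -1.37, SE 0.18). NRPD4, shared by RNA polymerases IV and V, and NRPC2, the second largest subunit of RNA polymerase III, had log2 differences of -1.0 and -0.81 close to the limit (adjusted p = 0.0094 and 0.00867 by limma). Neither of these last calls held after quantile normalization or centering, or with any 1 of the 6 PE arrays left out, and that of NRPE7 was lost without replicate 1 or 3 at 17°C.

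Disease resistance genes had 2 of 7 members lower and 0 higher, with a median of -0.41, again beside 3.73% lower and 2.53% higher of all probe sets. RPP5, a receptor for downy mildew, had signals of 391, 339 and 322 at 27°C and of 588, 647 and 690 at 17°C, and LAZ5, a receptor of the same class, had signals of 179, 160 and 173 at 27°C and of 290, 286 and 302 at 17°C. Their log2 differences were -0.87 and -0.78 (adjusted p = 0.00511 and 0.00537 by limma), small but larger than the spread of the replicates. Both calls were lost whichever of the 6 PE arrays was left out. RPP4 had the lowest signals of the list, 29.9, 21.9 and 10.8 at 27°C and 70.5, 100 and 50.5 at 17°C. Its difference of -1.88 just missed the limit (adjusted p = 0.0103).

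Of 50 measured transcription factors only COL5, a CONSTANS-like factor, passed in the limma test, which called 6.25% of all probe sets. COL5 had signals of 1916, 1488 and 1482 at 27°C and of 2789, 3164 and 3385 at 17°C (log2 difference -0.94, adjusted p = 0.00562). The regulator of trichome and flavonoid genes TTG1 was lower as well, with a log2 difference of -0.74. It was the only call among 3 measured members of the flavonoid list, where 3.73% of all probe sets were lower. AT4G38020, which the study named, was higher by 1.19 on the log2 scale (SE 0.17), and AT1G19430, also named there, had a difference of -0.02. The call of TTG1 was lost whichever of the 6 PE arrays was left out, that of COL5 without replicate 1, 2 or 3 at 17°C or replicate 2 or 3 at 27°C, and that of AT4G38020 without replicate 1 or 3 of either temperature.

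No member was called in the lists for the circadian clock (0 of 10, median -0.40), early auxin response (0 of 8, -0.45), histones (0 of 7, -0.61), mRNA decay (0 of 15, -0.26), cell wall growth (0 of 13, -0.12), starch and sugar (0 of 8, -0.39), thermomorphogenesis (0 of 6, 0.60), low oxygen (0 of 3, 0.16) or touch and jasmonate (0 of 3, 0.35). The limma test called 6.25% of all probe sets. These counts cover measured members only and leave out most entries of several lists. The circadian clock list has 45 entries, early auxin response 34, mRNA decay 56 and starch and sugar 46. Thermomorphogenesis has 45, low oxygen 25 and touch and jasmonate 41. Values of single members illustrate the spread. DFL1, a GH3 enzyme that conjugates auxin, had signals of 418, 357 and 430 at 27°C and of 639, 652 and 670 at 17°C, separate groups whose adjusted p of 0.0104 missed the limit. HTA6, a histone H2A, had signals of 1441, 1178 and 960 at 27°C and of 1856, 2754 and 1907 at 17°C (log2 difference -0.86, adjusted p = 0.0227). DCP2, the decapping enzyme that removes the cap before decay from the 5′ end, had a difference of -0.84 (adjusted p = 0.0491), and PHYC, a phytochrome, one of 0.73 (adjusted p = 0.0202).

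Nuclear genes of photosynthesis had 0 of 10 members called, beside 6.25% of all probe sets, and a median of -0.04. RCA differed by 0.17 and LHCB4.2, an antenna protein of photosystem II, by -0.28. Genes of the plastid genome behaved otherwise in their spread. Of 42 measured plastid-encoded genes 34 had a positive difference, beside 5422 of all 12906 probe sets, and 0 were called, beside 6.25%. The list was chosen with earlier results of these data known, and its count of signs was not tested. Their median was 0.39 and their median SE 0.35, against 0.16 for the nuclear photosynthesis genes and 0.17 for all probe sets. At time 0 their median difference was -0.50. Their median difference in change from time 0 to PE was 0.88, against -0.02 for all probe sets. In that contrast 0 were called, beside 1.74% of all probe sets. ycf3, needed to assemble photosystem I, had signals of 582, 1341 and 4259 at 27°C and of 364, 232 and 545 at 17°C. The groups did not overlap, but the 27°C arrays alone spanned more than the gap between groups, and the difference of 2.06 was not called (adjusted p = 0.0477 by limma).

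**Figure D3:**
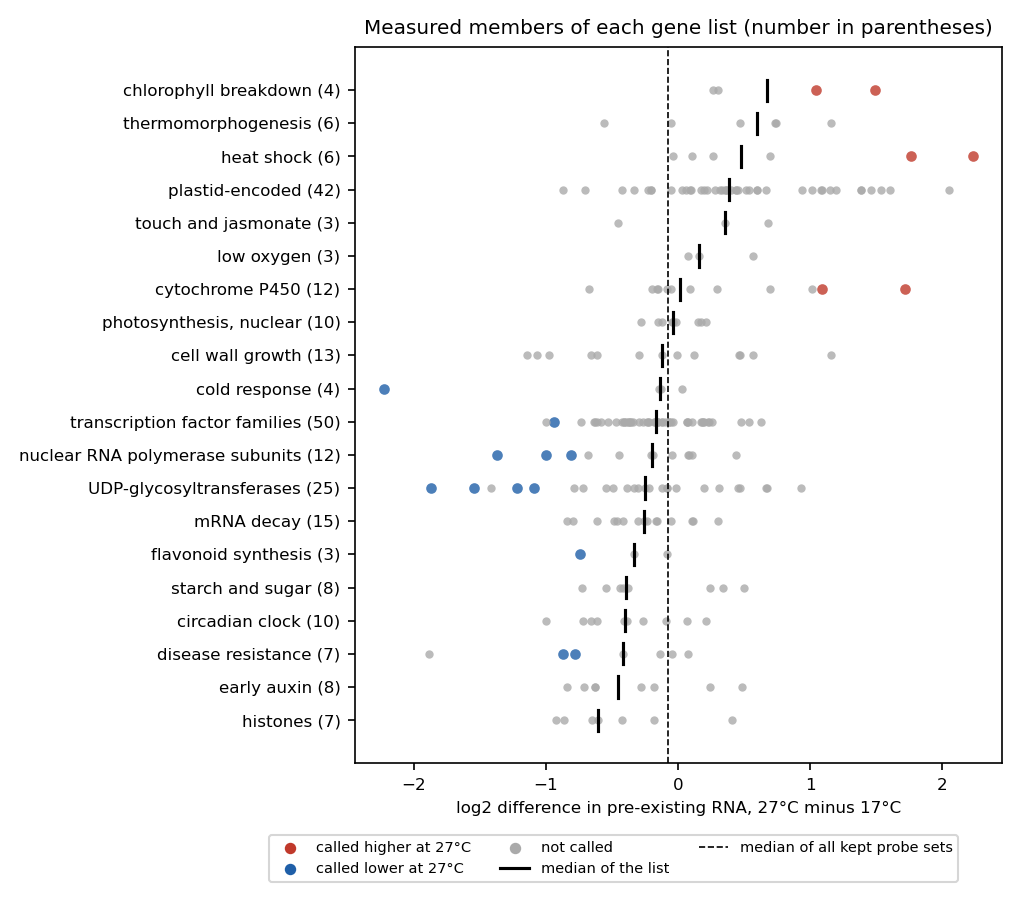
Log2 difference in pre-existing RNA (27°C minus 17°C) of each measured member of the gene lists, with called members in red (higher at 27°C) or blue (lower at 27°C), the list median as a black bar and the median of all probe sets as a dashed line. The genes that the study names are not drawn. Red points stand in the heat shock, chlorophyll breakdown and cytochrome P450 lists, where the called genes were added after their values were seen, and the cold response gene at -2.22 is LTI30.

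The same temperature contrast was next placed beside the other kinds of RNA, to see where the PE differences were already present at time 0. Time 0 samples are separate harvests from the PE samples. At time 0, 1232 probe sets (9.55%) were higher and 1371 (10.6%) lower at 27°C in total RNA. Of the 326 probe sets higher in PE 235 were also called higher at time 0, which is 72.1% of the PE calls and 19.1% of the time 0 calls, and 323 had the same sign. Of the 481 lower in PE 296 were also called lower at time 0, which is 61.5% of the PE calls and 21.6% of the time 0 calls, and 433 had the same sign. The opposite call at time 0 was found for 0 of the higher and 12 of the lower probe sets. The 2 fractions and the total RNA of the end of labeling come from the same extracts, so their values are given side by side only. In total RNA at the end 241 of the 326 (73.9%) and 324 of the 481 (67.4%) had the same call. The sign was the same for 325 and 480, with 0 opposite calls. In NS RNA 145 of the 326 (44.5%) and 207 of the 481 (43%) had the same call. The same limits called 1094 probe sets (8.48%) in total RNA at the end and 965 (7.48%) in NS RNA.

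For the 24 genes with the largest PE differences, the difference in total RNA at time 0 was called the same way in 10 of the 12 increases and 11 of the 12 decreases. The exceptions were AT1G54050, AT2G29500 and AT5G16980, which are described further down. In total RNA at the end of labeling all 24 were called the same way. In NS RNA 9 of the 12 increases and 11 of the 12 decreases were called the same way. AT1G67860 had NS signals of 2.61, 41.9 and 34.9 at 27°C and of 23.3, 36.7 and 35.6 at 17°C, below the level of 50 used as the filter on total RNA, while its PE signals were 447, 477 and 538 at 27°C, against 105, 108 and 51.4 at 17°C. AT4G33490 likewise had PE signals of 399, 486 and 514 at 27°C and of 94.6, 80.8 and 54.9 at 17°C. Its NS signals were 75.7, 111 and 98.6 at 27°C, against 85.6, 94.1 and 67.2 at 17°C, with overlapping groups. AT2G43620 showed a log2 difference of 3.40 in PE, 3.57 at time 0 and 0.83 in NS. In these 3 genes the temperature difference was called at time 0 and in PE and was not called in NS. Among the decreases the same held for AT5G01870, with log2 differences of -2.66 in PE, -3.69 at time 0 and -0.98 in NS (adjusted p = 0.0148 by limma for NS). Whether the differences in the fractions differ from each other was not tested.

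**Figure D4:**
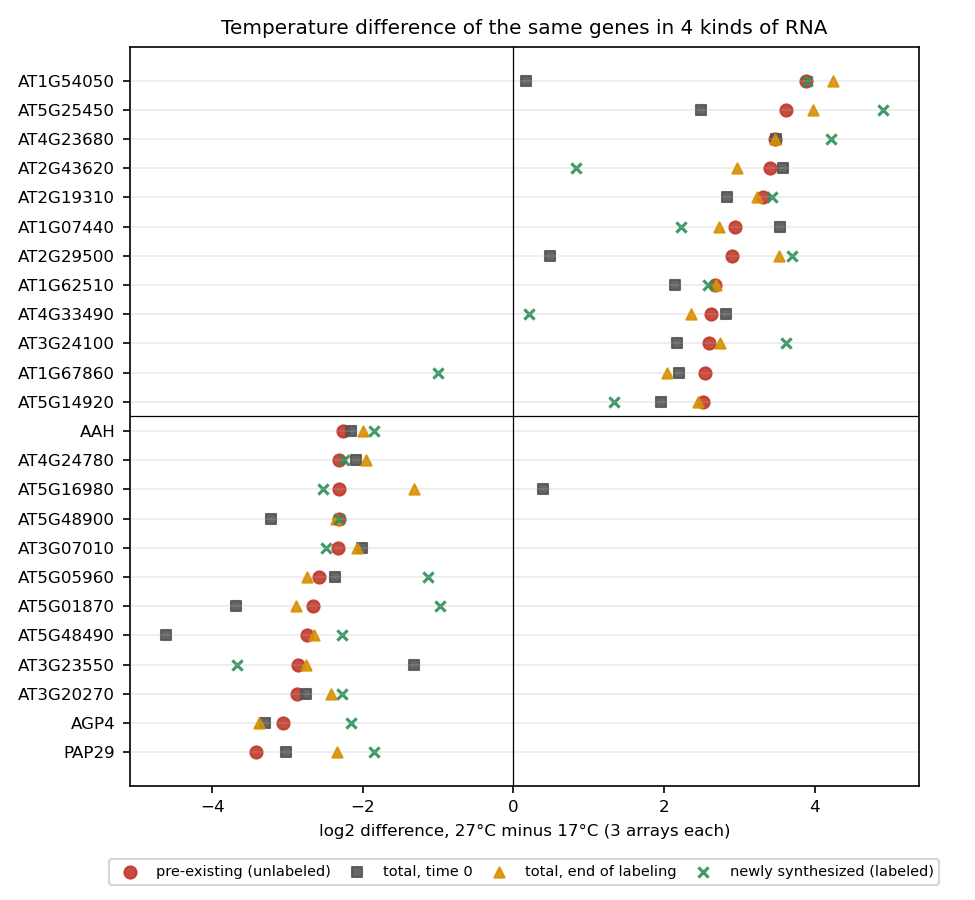
Log2 difference (27°C minus 17°C, 3 arrays against 3) of the same 24 genes in pre-existing RNA (circles), total RNA at time 0 (squares), total RNA at the end of labeling (triangles) and newly synthesized RNA (crosses). Squares lie near 0 for AT1G54050 (0.17), AT2G29500 (0.49) and AT5G16980 (0.40), and crosses lie apart from the circles for AT4G33490 (0.21), AT1G67860 (-1.0) and AT2G43620 (0.83).

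The change of each gene between total RNA at time 0 and PE at the end was then compared between the temperatures, which asks whether the PE difference departs from the difference the seedlings started with. This contrast called 225 probe sets (1.74%) by limma, 27 with a higher change (0.209%) and 198 with a lower change (1.53%) at 27°C. The split depended on the scaling. With each array centered on its median, 35 had a higher and 124 a lower change, and with quantile normalization 30 and 152. The contrast is built from the time 0 values, so its direction is tied to them: of the 198 with a lower change 147 had been higher and 0 lower at 27°C at time 0, and of the 27 with a higher change 19 had been lower and 1 higher. Of the 198 probe sets 45 were called lower in PE, 2 higher, and 151 were not called there. Labeling lasted 1 hour at 27°C and 2 hours at 17°C, and this difference is contained in the contrast.

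HEC1, a bHLH transcription factor, was called higher at 27°C at time 0 and was not called in PE. Its time 0 signals were 497, 555 and 748 at 27°C, against 202, 112 and 132 at 17°C. Its PE signals were 110, 73.3 and 54.4 at 27°C, against 117, 157 and 117 at 17°C, so that all 27°C values lay below those of 17°C. That PE difference of -0.77 on the log2 scale did not pass (adjusted p = 0.0642 by limma). At 27°C every PE array lay below every time 0 array, while at 17°C the values overlapped, and the changes differed by -2.80 on the log2 scale (SE 0.38, adjusted p = 0.00108 by limma). AT5G05190 had time 0 signals of 534, 348 and 658 at 27°C and of 122, 61.3 and 109 at 17°C. Its PE signals overlapped between the temperatures, with 67.6, 82.6 and 101 at 27°C and 90.0, 99.4 and 69.9 at 17°C. Its changes differed by -2.46 (SE 0.39), a call that was lost without replicate 1 or replicate 2 of the 17°C PE arrays.

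In RPP4 and AT4G28310 the order of the temperatures also turned round, with larger PE differences than in HEC1. RPP4 had time 0 signals of 143, 146 and 177 at 27°C and of 51.3, 72.2 and 63.2 at 17°C, above at 27°C, whereas its PE signals given earlier were lower at 27°C. Its changes differed by -3.21 (SE 0.45, adjusted p = 0.00147 by limma), a value that fell to a size of 1.98 when 32 was added to each signal before the logarithm. AT4G28310 had time 0 signals of 456, 433 and 377 at 27°C and of 140, 158 and 147 at 17°C, and PE signals of 137, 119 and 81.1 at 27°C and of 339, 500 and 316 at 17°C. No arrays of the 2 temperatures overlapped in either kind of RNA, and the changes differed by -3.29 (SE 0.29, adjusted p = 5.36e-05 by limma).

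Of 7 measured histone genes 2 had a lower change at 27°C by this contrast, against 1.53% of all probe sets, and 0 were called in PE itself. The histone list was narrowed after values were seen. Over the 7 measured histone genes the median temperature difference was 0.69 at time 0 and -0.61 in PE, and the median difference in change was -1.27, against -0.02 for all probe sets. HTB2, a histone H2B, had time 0 signals of 1104, 867 and 1085 at 27°C and of 436, 544 and 490 at 17°C, and PE signals of 345, 303 and 273 at 27°C and of 385, 636 and 412 at 17°C (difference in change -1.66, adjusted p = 0.00347 by limma). HTA7, a histone H2A, differed by -1.29 (adjusted p = 0.00472). HTA6 did not share this, with differences of -0.84 at time 0 and -0.86 in PE and a difference in change of -0.02. The calls of HTB2 and HTA7 were both lost without replicate 3 of the 27°C PE arrays, and that of HTA7 also without replicate 1 of either temperature.

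The CYP71B26 and UGT73B1 transcripts also had lower changes at 27°C, by way of increases at 17°C. CYP71B26 had time 0 signals of 725, 722 and 879 at 27°C and of 120, 106 and 102 at 17°C, and PE signals of 855, 772 and 889 at 27°C and of 403, 393 and 380 at 17°C. The level at 27°C stayed close to its start while that at 17°C lay several fold above it, and the changes differed by -1.73 (SE 0.18, adjusted p = 0.000163 by limma). AT5G16980 had time 0 signals of 149, 144 and 109 at 27°C and of 149, 81.1 and 85.4 at 17°C, and PE signals of 408, 335 and 194 at 27°C and of 1604, 1240 and 1647 at 17°C. Its changes differed by -2.71 (SE 0.39). At both temperatures the unlabeled fraction held more of this transcript, as a share, than total RNA had held at the start. Its mean NS signal was 524 at 27°C and 2987 at 17°C. How much newly made RNA was left in the unlabeled fraction was not measured. Its part in the PE signals of AT5G16980, CYP71B26 and UGT73B1 was not tested.

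Higher changes at 27°C were led by AT1G54050 and AT2G29500. AT1G54050 had time 0 signals of 153, 76.3 and 134 at 27°C and of 111, 151 and 66.3 at 17°C, which overlapped. Its PE signals at 27°C, given earlier, were more than 10 times those values. Its NS signals were 4598, 5529 and 7639 at 27°C, against 623, 359 and 260 at 17°C. The changes differed by 3.72 on the log2 scale (SE 0.42, adjusted p = 0.000287 by limma). AT2G29500 had time 0 signals of 121, 79.9 and 118 at 27°C and of 85.6, 71.8 and 66.8 at 17°C, and PE signals of 1008, 1024 and 1689 at 27°C and of 156, 153 and 176 at 17°C. Its NS signals were 1493, 2312 and 3808 at 27°C, against 201, 145 and 206 at 17°C, and the changes differed by 2.41 (SE 0.30). For both genes the NS signals exceeded the PE signals on the 27°C arrays on average. The amount of newly made RNA left in the unlabeled fraction was not measured in these values, and its part in the PE signals was not tested. Cpn60beta2 followed with a difference in change of 1.42 (adjusted p = 0.00894), which was lost without replicate 1 or 3 of either temperature.

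AT5G48490, AT2G34620 and AT3G52170 had higher changes, and their time 0 levels were low at 27°C. AT5G48490 had time 0 signals of 111, 195 and 158 at 27°C and of 3828, 3635 and 3651 at 17°C, and PE signals of 670, 399 and 604 at 27°C and of 3375, 4591 and 3166 at 17°C. It stayed lower at 27°C in PE, but by 6.72-fold only, and the changes differed by 1.87 (SE 0.32, adjusted p = 0.00509 by limma). AT2G34620 had time 0 signals of 148, 155 and 128 at 27°C and of 869, 853 and 982 at 17°C, and PE signals of 516, 363 and 441 at 27°C and of 612, 901 and 762 at 17°C (difference in change 1.87). AT3G52170 had a difference in change of 1.64 and no called PE difference (-0.17). The call of AT5G48490 was lost without replicate 1 or 3 of either temperature, and that of AT3G52170 without replicate 1 or 3 at 17°C or replicate 1 or 2 at 27°C. With each array centered on its median, PE at 27°C lay above time 0 by 4.32-fold for AT5G48490, 3.64-fold for AT2G34620 and 3.01-fold for AT3G52170. Newly made RNA left in the unlabeled fraction was not measured for these genes, and its part was not tested.

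**Figure D5:**
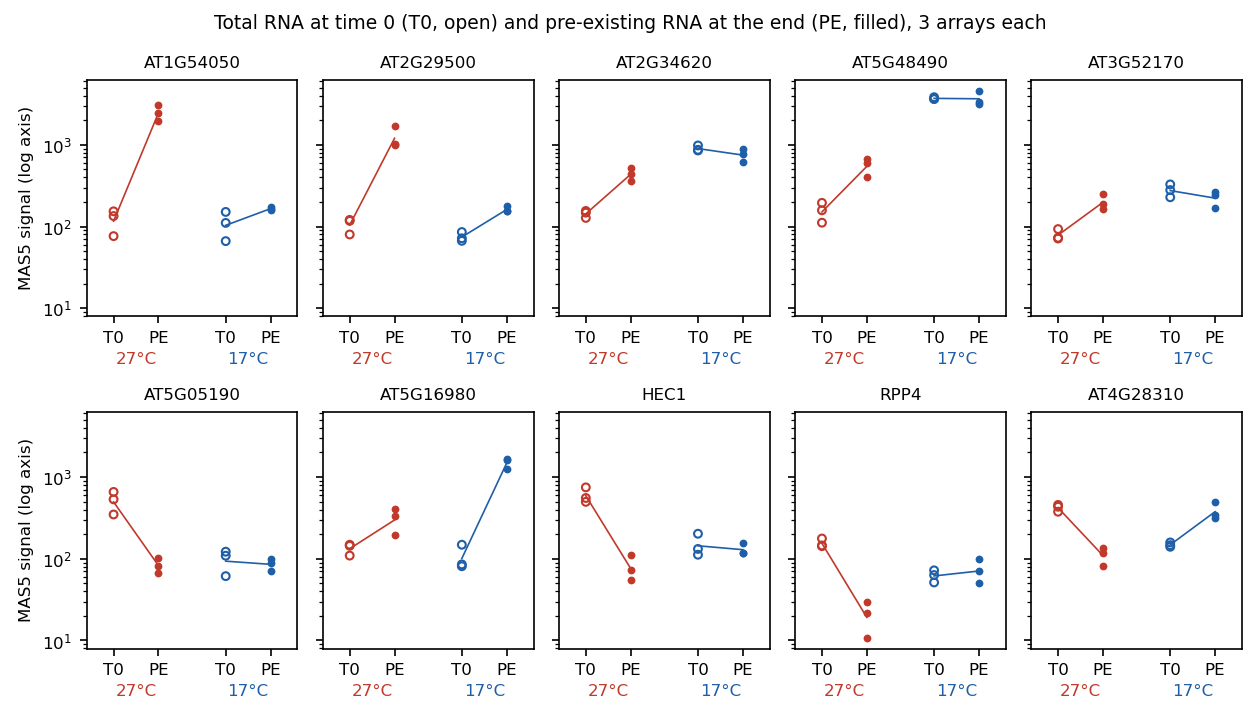
MAS5 signal (log axis) of total RNA at time 0 (T0, open) and of pre-existing RNA at the end of labeling (PE, filled) on each array, at 27°C (red, left) and 17°C (blue, right), for the 5 named genes with the highest (upper row) and the 5 with the lowest (lower row) difference in change. Lines join the geometric means of 3 arrays. The order of the temperatures turns round in HEC1, RPP4 and AT4G28310, and AT1G54050 and AT2G29500 rise steeply at 27°C.

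Within a temperature, PE at the end was also set against time 0 after each array was centered on its median, since both kinds of array are scaled to one mean. At 27°C 2728 probe sets (21.1%) lay above time 0 and 1860 (14.4%) below it by limma. At 17°C 817 (6.33%) lay above and 863 (6.69%) below. Above time 0 at both temperatures were 560 probe sets, and below at both 620. After 1 hour at 27°C, depletion from PE exceeded 4-fold in 98 probe sets, while 59 lay more than 4-fold above time 0. After 2 hours at 17°C, 33 were depleted this far and 53 lay above by more than 4-fold. BZIP61, a bZIP transcription factor, was among the most depleted at both temperatures, with PE signals of 39.3, 53.1 and 62.8 at 27°C and of 67.5, 67.5 and 108 at 17°C against time 0 signals of 569, 655 and 443 at 27°C and of 766, 737 and 642 at 17°C. AT5G39890, the plant cysteine oxidase PCO2 of oxygen sensing, had PE signals of 62.6, 92.2 and 87.8 at 27°C and of 87.1, 73.8 and 67.4 at 17°C against time 0 signals of 386, 443 and 547 at 27°C and of 256, 333 and 768 at 17°C. Both transcripts were depleted at each temperature, and their PE levels did not differ between temperatures past the limit (adjusted p = 0.0924 and 0.812 by limma).

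The last comparison divided PE by the total RNA of the same extract at the end of labeling. By limma 0 of 12906 probe sets (0%) passed in either direction, with a lowest adjusted p of 0.354, and 328 were higher and 1023 lower at an unadjusted p under 0.05. The median log2 difference of this ratio was -0.06 as deposited, with a median SE of 0.17, and 0.05 after median centering. The ratio had log2 differences of -0.36 for AT1G54050, -1.07 for PAP29, 0.02 for LTI30 and -1.63 for RPP4, none of them called. With 3 arrays against 3, here as in the PE comparison, a single gene cannot reach an exact two-sided permutation p below 0.1.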

How the data were processed

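RNA of Arabidopsis seedlings was hybridized by the authors to Affymetrix ATH1 arrays, with 3 biological replicates of each kind of RNA at each temperature. The deposited values are MAS5 signals, an intensity per probe set on a linear scale, and each array was scaled by the authors to a like mean of about 500. Its version is not given in the sources used. Of 22810 probe sets 64 controls were left out, and those with a signal of at least 50 on all 12 total RNA arrays were kept, since detection calls were not used here. Log2 signals were compared with limma 3.58.1 in R 4.3.3 (2-sided). The methods used SAM, for which limma stands in.

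Names came from the platform annotation and the study's locus table, and 7702 of 12906 kept probe sets have 1 gene. Named are the 12 largest called PE differences in each direction with separate replicates, the 5 largest differences in change, up to 4 members of each of 23 lists, and genes the study names. Members and lists were chosen with earlier results of these data known. Chosen after values were seen were the lists for chlorophyll breakdown, UDP-glycosyltransferases, RNA polymerase subunits, cytochrome P450, disease resistance and plastid genes, the chaperones HSA32 and Cpn60beta2 of the heat shock list, a narrower histone list and the within-temperature comparison. These lists and additions came from reading the called genes and support nothing. PE and total arrays of one number share an extract and deviated together (r = 0.157 to 0.468), although replicate 1 at 27°C had a higher r (0.178) with another number. Scripts were tested on simulated data. The number of arrays limits the precision.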

Additional observations from a re-analysis of the deposited data

Results flagged for a closer look

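The 5 named genes with the highest and the 5 with the lowest difference in change from time 0 to PE between the temperatures are listed because the difference itself passed the limma test of the contrast. On the log2 scale, 27°C minus 17°C, the changes differed by 3.72 for AT1G54050, 2.41 for AT2G29500, 1.87 for AT2G34620, 1.87 for AT5G48490 and 1.64 for AT3G52170, and by -3.29 for AT4G28310, -3.21 for RPP4, -2.80 for HEC1, -2.71 for AT5G16980 and -2.46 for AT5G05190. The labeling times of 1 hour at 27°C and 2 hours at 17°C are part of each value. Groups of 3 arrays are too small for a test of outlying arrays.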

How the results depend on the processing

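No named call changed sign, but the balance of PE calls turned round with the scaling: 326 were higher and 481 lower at 27°C as deposited (median log2 difference -0.08), 515 and 360 after median centering (0.04), and 389 and 364 after quantile normalization. The PE comparison (807 probe sets) gave 0 without the filter, 1254 without the filter but with an intensity trend of the variance (chosen after seeing the data), 1618 with all 24 arrays in one fit, 1376 with the intensity trend alone, 2455 at an adjusted p under 0.05 with no fold limit and 533 above 2-fold. Leaving out 1 PE array gave 237 to 624, with 237 and 289 without replicates 3 and 2 at 17°C, 414 without replicate 1 there, and 407 and 350 without replicates 1 and 3 at 27°C. The difference in change (225) gave 31 without the filter, 747 at an adjusted p under 0.05 with no fold limit and 128 to 236 when 1 PE array was left out, with 134 without replicate 3 at 27°C and 128, 137 and 131 without replicates 1, 2 and 3 at 17°C. PE over total stayed at 0 throughout. The replicate block left 399 calls in PE and 140 in the difference in change, but same-numbered PE arrays of the 2 temperatures did not deviate together (r = -0.17 to -0.06), so the numbers do not pair them.

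Of the 44 named genes called in PE, 30 kept their call under every setting except the unfiltered fit, in which none did. Of the 17 called in the difference in change, 9 kept it under all but the unfiltered fit and 2, AT4G28310 and CYP71B26, under that fit too. The cause of the loss was not tested. Signals carry no record of RNA amount per fraction, and 5204 kept probe sets lack a single gene name.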
